A study of Mus musculus with 10 samples.

Results

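The expression of 10 chondrogenic transcription factors was examined in the forming mouse pinna. They were chosen by name, as 3 SOX factors (*Sox5*, *Sox6* and *Sox9*), 3 RUNX factors (*Runx1*, *Runx2* and *Runx3*), and *Nkx3-2*, *Pax1*, *Pax9* and *Pou3f4*. They are 10 of the 53465 genes in the count table and 10 of the 16426 genes that passed a filter on low counts. Bulk RNA-seq libraries were made from whole pinna prominences of E14.5 embryos (embryonic day as labelled), with 5 wild-type (WT) replicates and 5 *mEC1dup/dup* replicates, labelled KI for knock-in. The *mEC1dup/dup* mice were made by CRISPR/Cas9 on a C57BL/6J background and carry an additional copy of mEC1, an enhancer of the homeobox gene *Hmx1*, on each allele. The duplication is homozygous and in the germline, so that every cell of the embryo carries it, and by the study's account the embryos were siblings from separate litters. The comparison of KI with WT asks which genes differ in the pinna when *Hmx1* expression is raised by the enhancer duplication.

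SOX9 is the master regulator of chondrogenesis and directly activates the genes of the cartilage matrix, such as *Col2a1* and *Acan*, and SOX5 and SOX6, which lack a transactivation domain, bind beside it and strengthen that activation. RUNX2, with RUNX3, drives chondrocytes towards hypertrophy and RUNX2 is required for osteoblasts, while RUNX1 acts in mesenchymal and perichondrial cells and in blood formation. NKX3-2 (BAPX1), PAX1 and PAX9 promote the cartilage of the axial skeleton and of pharyngeal arch derivatives, and POU3F4 is a POU-domain factor of the mesenchyme around the inner ear.

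In the whole series, total counts ranged from 17461544 to 18462073 per library. *Hmx1* was at 21.7 to 29.1 CPM in the WT libraries and at 52.8 to 77.5 CPM in the KI libraries, so every library matched its label. CPM is a gene's count scaled to a fixed library total, here with library sizes corrected by the TMM method, and tests are edgeR's quasi-likelihood test over all 16426 genes with Benjamini-Hochberg adjustment. A gene was called where the adjusted p did not exceed 0.05 and its log2 CPM averaged 1 or more, which 434 genes reached (2.64% of those tested). Chondrocyte markers were present in each library, all 10 of 10 above 0, with a summed level of 6805 to 11091 CPM in WT. One library stood apart, KI replicate 1, in which this sum was 2899 CPM against 6442 to 8799 CPM in the other 4 KI libraries. *Xist*, expressed from the inactive X chromosome of female cells, had 2 to 5 counts in the WT libraries. In KI replicates 1 to 5 it had 12812, 19040, 18165, 2096 and 0 counts, so sex and genotype are largely confounded. The cause of the intermediate level in KI replicate 4 was not tested. The share of globin counts on embryonic globin genes was 18.4% to 23.3% in WT and 32.5% to 35.6% in KI, so that a difference in developmental age and the genotype cannot be told apart from these libraries. In bulk tissue, fewer cells of a type and less RNA per cell cannot be told apart either.

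None of the 10 factors was called between KI and WT, beside 2.64% of all tested genes. Their log2 fold changes (KI against WT) ran from -0.15 for *Runx2* to 0.31 for *Nkx3-2* with a median of 0.083, beside a median of -0.0041 over all tested genes, and 4 of the 10 were below 0. For each of them the CPM of the 5 KI libraries overlapped those of the 5 WT libraries, whereas 5.07% of tested genes had groups that did not overlap. The plot of CPM by library shows these values, with KI replicate 1 drawn as an open diamond.

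**Figure D1:**
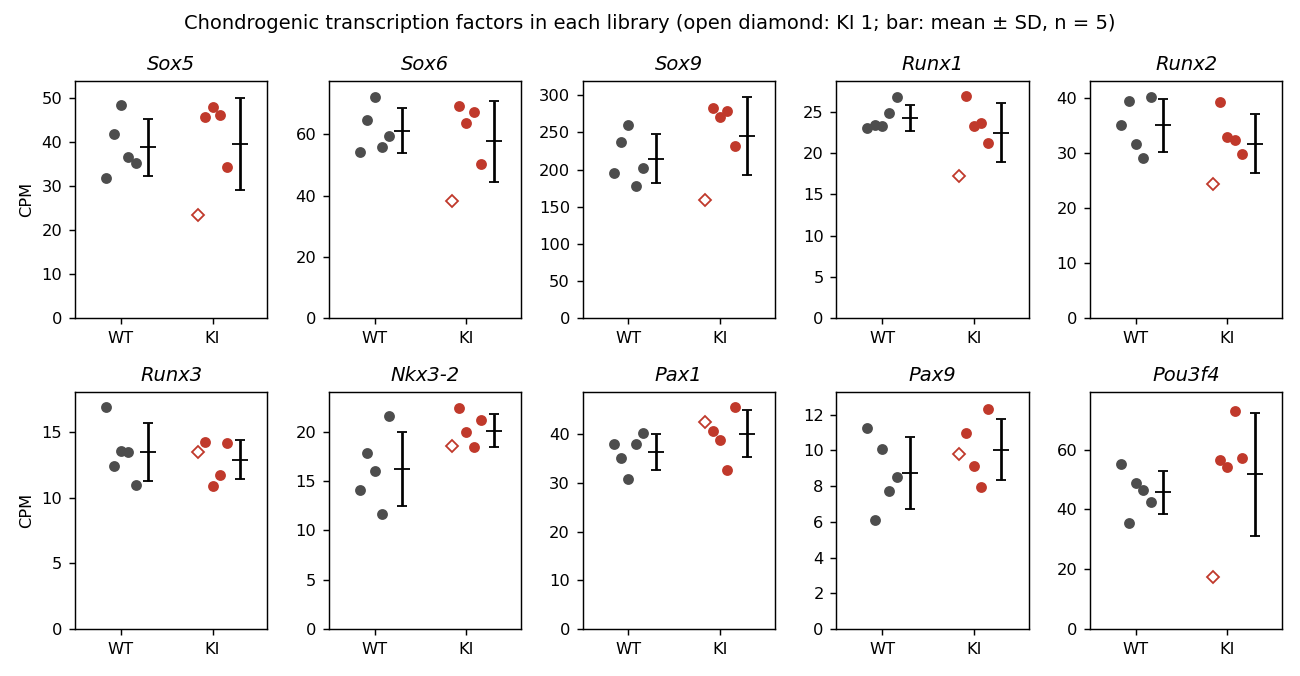
CPM (counts scaled to a fixed library total, TMM-corrected) of each of the 10 factors in the 5 WT and 5 KI libraries, with the mean and SD of each genotype as a black bar. The groups overlap in every panel, and KI replicate 1 (open diamond) is the lowest of the 10 libraries for 6 factors, *Sox5*, *Sox6*, *Sox9*, *Runx1*, *Runx2* and *Pou3f4*.

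The upstream sequences of the factors on which the later results turn are given first. The windows are the 250 bases before the annotated gene start in GENCODE, read from GRCm39, the build of the counts, and all are 5′ to 3′ on the strand of the gene. The letters of 3 short motifs were searched on both strands, CAAGTG (the core bound by HMX factors), AACAAT (SOX) and TGTGGT (RUNX), none of which overlapped another, and their matches are in capitals. *Sox9* lies at chr11:112673009-112678586 (plus strand), and its window, chr11:112672759-112673008, is shown because the main results turn on it and holds no match. *Sox5* lies at chr6:143774151-144727703 (minus strand), and its window, chr6:144727704-144727953, is shown because it is the only one of the 10 with a match to the HMX core and to the SOX core.
Sox9: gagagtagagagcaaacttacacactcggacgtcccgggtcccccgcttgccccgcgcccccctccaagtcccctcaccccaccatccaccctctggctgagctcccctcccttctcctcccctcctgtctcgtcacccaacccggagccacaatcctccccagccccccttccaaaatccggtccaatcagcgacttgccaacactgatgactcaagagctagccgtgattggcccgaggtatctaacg
Sox5: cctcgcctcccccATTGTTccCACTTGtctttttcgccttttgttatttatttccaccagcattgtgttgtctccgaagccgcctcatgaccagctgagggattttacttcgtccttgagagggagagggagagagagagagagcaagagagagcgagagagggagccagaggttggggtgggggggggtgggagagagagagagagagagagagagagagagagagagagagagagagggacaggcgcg

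In *Sox5* both matches lay on the opposite strand, the SOX core beginning 237 bases and the HMX core 229 bases before the gene start. Of the 16321 tested genes with such a window, 12.3% had a match to the HMX core, 8.07% to the SOX core and 13% to the RUNX core, so 1 of 10 factors is near the share of all genes for each of the first pair. The RUNX core occurred in the windows of 3 of the 10 factors, *Runx1*, *Runx2* and *Runx3* themselves, with 2 copies in *Runx3*. Stretches with 17 bases on either side of these matches are printed to show that each reads ACCACA on the gene's own strand. Their positions are chr16:92623248-92623287 for *Runx1* and chr17:45125836-45125875 for *Runx2*, both minus strand, and chr4:134847805-134847852 for *Runx3*, plus strand.
Runx1: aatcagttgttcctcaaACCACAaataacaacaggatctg
Runx2: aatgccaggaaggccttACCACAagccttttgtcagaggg
Runx3: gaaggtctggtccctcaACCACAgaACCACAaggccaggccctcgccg

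Further promoters inside an annotated gene, as in *Runx1* and *Runx2*, are not covered by the window of any factor. A match of 6 letters is a description of the sequence and does not show that a factor binds there. All 10 factors are protein-coding genes under a single identifier in the annotation.

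*Sox9* was the most abundant of the 10 per length of transcript. Its CPM were 196, 237, 259.9, 178 and 202 in WT replicates 1 to 5. In KI replicates 1 to 5 they were 159, 284, 270.3, 279 and 232, so KI replicate 1 was the lowest of the 10 libraries while KI replicates 2, 3 and 4 lay above every WT library. The mean was 215 ± 33.2 CPM in WT and 245 ± 52.4 CPM in KI (SD, n = 5 each), a fold change of 1.14 with a 95% interval of 0.920 to 1.41 (edgeR adjusted p = 0.572). Without KI replicate 1 the KI mean was 266 ± 23.7 CPM (n = 4) and the log2 fold change 0.31 (SE 0.0996, unadjusted p = 0.00861, edgeR adjusted p = 0.128). That fit called 2.87% of the genes it tested, and *Sox9* was not among them. The annotated exons of *Sox9* share 13% of their bases with an antisense gene, BC006965, and neither library kit that the sources name marks strand, so reads of the shared part cannot be told apart.

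*Sox5* and *Sox6* followed *Sox9* from embryo to embryo and were not called between KI and WT. *Sox5* was at 32.0, 42.0, 48.4, 36.7 and 35.3 CPM in WT replicates 1 to 5. Its KI values were 23.4, 45.7, 48.0, 46.2 and 34.4 CPM, of which the first was below, and the others within, the WT range. The fold change was 1.02 (95% interval 0.788 to 1.32, edgeR adjusted p = 0.960). *Sox6* (chr7:115070106-115638860, minus strand) was at 54.1, 64.5, 72.0, 55.9 and 59.4 CPM in WT. Its KI values of 38.3, 69.1, 63.8, 67.3 and 50.2 CPM placed replicates 1 and 5 below every WT library. The *Sox6* fold change was 0.944 (95% interval 0.766 to 1.16, edgeR adjusted p = 0.824). Neither gene was called, and their intervals span fold changes from 0.766 to 1.32.

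After subtraction of each genotype's mean, the log2 CPM of *Sox5* and *Sox6* correlated at r = 0.98, of *Sox6* and *Sox9* at r = 0.96 and of *Sox5* and *Sox9* at r = 0.95 over the 10 libraries. Without KI replicate 1 the same values were 0.94, 0.91 and 0.86. These are descriptions, since both genes of a pair were read in the same libraries, among which chondrocyte marker RNA varied as well. The genes with patterns most like *Sox9* were *Scube3* (r = 0.99), *Col11a1* (r = 0.97) and *Acan* (r = 0.97), the last pair encoding a cartilage collagen chain and aggrecan. For *Sox5* they were *Fgfr3* (r = 0.98), a fibroblast growth factor receptor of chondrocytes, *Phlda2* (r = 0.98) and *Unc5c* (r = 0.98), and for *Sox6* they were *Sox5* itself, *Scube3* (r = 0.97) and *Vstm2b* (r = 0.96). At r of at least 0.9 stood 0.399% of the genes compared for *Sox5*, 0.313% for *Sox6* and 0.385% for *Sox9*. The genes compared were those with an average log2 CPM of 1 or more. The share of *Sox5* in the sum of *Sox5* and *Sox6*, each per length, was 39.8% ± 1.44 in WT and 41.5% ± 1.80 in KI (SD, n = 5 each). That difference did not pass a two-sided exact permutation test over all arrangements of 5 against 5 (p = 0.127, 0.635 after adjustment over the 5 family shares computed).

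Among the targets of the SOX factors, *Comp* fell in KI, and *Snorc* passed the test with all libraries but not in every fit with 1 left out. Of 22 cartilage matrix genes and SOX9 targets, all tested, 21 had log2 fold changes below 0, with a median of -0.30, and 2 were called lower (1.81% of all tested genes were). *Comp*, which encodes cartilage oligomeric matrix protein, was at 12.8 to 17.6 CPM in WT and 3.14 to 8.10 CPM in KI, with no overlap, and fell by 1.24 on the log2 scale (SE 0.190, edgeR adjusted p = 0.00640). *Snorc*, which encodes a small chondrocyte proteoglycan, was at 2.43 to 4.27 CPM in WT and 0.571 to 1.68 CPM in KI and fell by 1.32 (SE 0.273, edgeR adjusted p = 0.0229). *Comp* was called in all 10 fits that left out 1 library. *Snorc* was not called without WT replicate 3 or KI replicate 3 or 4 (edgeR adjusted p of 0.0557 to 0.0627). The 5 most abundant others did not pass the test. *Col2a1*, the main cartilage collagen, was at 3744 ± 899 CPM in WT and 3033 ± 1030 CPM in KI (log2 fold change -0.30, edgeR adjusted p = 0.576). *Col11a1* (-0.42), *Col9a1* (-0.23), *Col9a3* (-0.20) and *Col9a2* (-0.18) had adjusted p of 0.326 to 0.751 by the same test. KI replicate 1 was the lowest of the 10 libraries for all 22 genes, beside 11.1% of all tested genes and 6 of the 10 factors. Without it the median log2 fold change of the 22 genes was -0.16. The plot of the pathway lists sets these genes beside the factors.

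**Figure D2:**
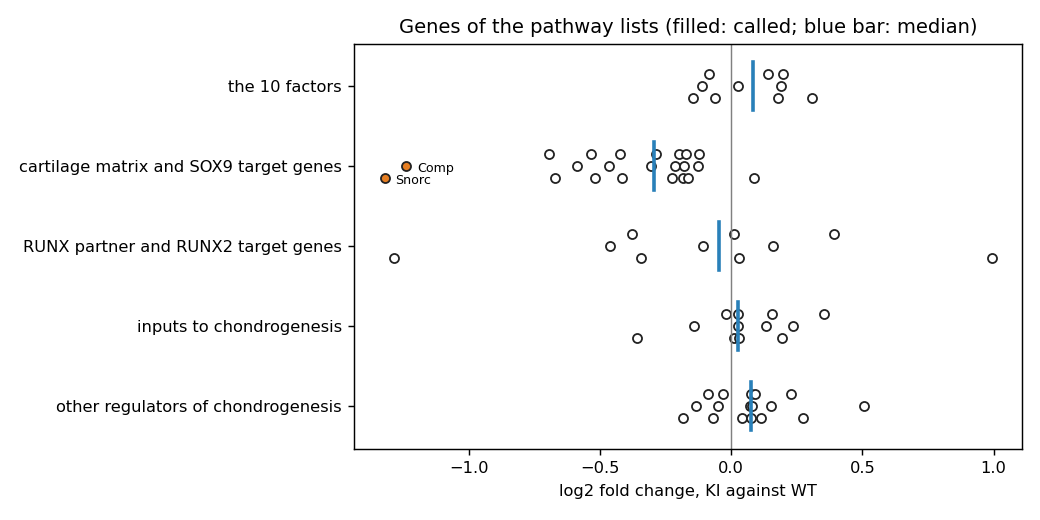
Log2 fold changes (KI against WT, edgeR) of the 10 factors and of 4 lists of related genes, 1 circle a gene, with filled circles for genes called and a blue bar at each list's median. The cartilage matrix and SOX9 target genes have a median of -0.30 and hold both filled circles (*Comp* and *Snorc*), while the medians of the other rows lie between -0.047 and 0.083.

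Because the level of chondrocyte marker RNA varied among the libraries, the factors were also set against it. The chondrocyte marker level is the mean log2 CPM of 10 markers (*Col2a1*, *Col9a1*, *Col9a2*, *Col9a3*, *Col11a2*, *Acan*, *Matn1*, *Hapln1*, *Cnmd* and *Snorc*). It correlated with *Sox5* at r = 0.95, *Sox9* at r = 0.95 and *Sox6* at r = 0.93 within genotypes, and at 0.88, 0.86 and 0.82 without KI replicate 1. In the 3 SOX factors the ratio to this level was higher in every KI library than in every WT library, which held for 3 of the 10 factors and for 8.71% of all tested genes. For *Sox9* the log2 ratio ran from -0.91 to -0.59 in WT and from -0.21 to 0.49 in KI.

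*Sox9* was also set against *Col2a1* alone, per 1000 of its counts. *Col2a1* is 1 of the 10 markers and was lower on average in KI, so this ratio is not a separate measure. The values were 53.8, 61.9, 49.9, 61.4 and 64.3 in WT replicates 1 to 5. They were 115.8, 84.5, 84.7, 66.7 and 75.9 in KI replicates 1 to 5, all above every WT library. Of the 10 factors only *Sox9* had groups that did not overlap in this ratio, and 0.304% of all tested genes had every KI library above every WT library in it. KI replicate 1, with the least *Sox9*, had the highest ratio, since its *Col2a1* was at 1369 CPM against 3055 to 4193 CPM in the other KI libraries. The plot of *Sox9* against *Col2a1* shows each KI library with more *Sox9* for its *Col2a1* than any WT library.

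**Figure D3:**
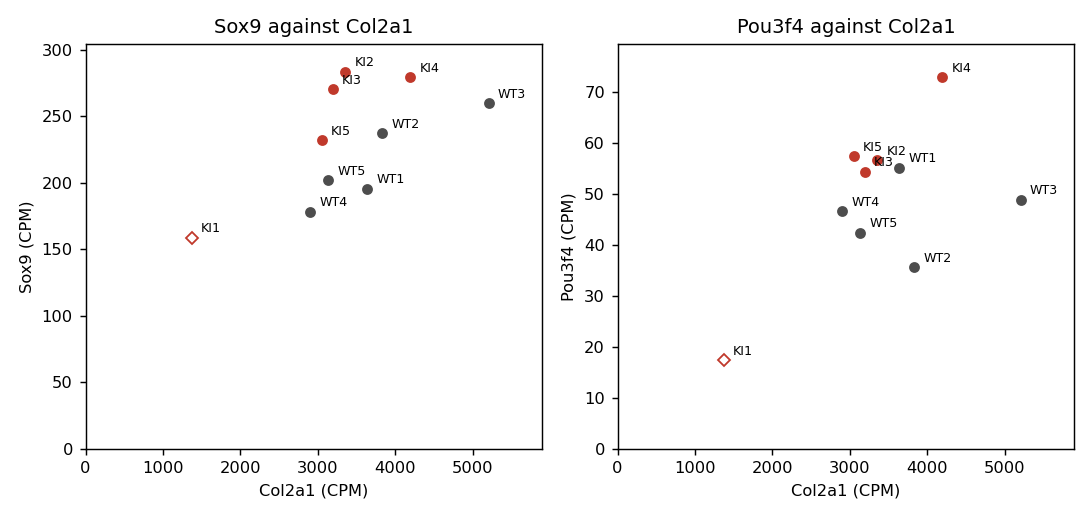
CPM of *Sox9* (left) and *Pou3f4* (right) against CPM of *Col2a1* in each library, WT in grey and KI in red, with KI replicate 1 as an open diamond. For *Sox9* every KI library has a higher ratio to *Col2a1* (66.7 to 115.8 counts per 1000) than every WT library (49.9 to 64.3), while for *Pou3f4* the ratios overlap (12.7 to 18.8 in KI and 9.29 to 16.1 in WT).

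With the marker level as a covariate in the fit of all genes, *Sox9* was higher in KI by 0.50 on the log2 scale (SE 0.0659, 95% interval 0.35 to 0.64, edgeR adjusted p = 0.00400). *Sox5* was higher by 0.39 (SE 0.0810, 95% interval 0.22 to 0.57, edgeR adjusted p = 0.0262). These 2 of the 10 factors were called higher, beside 0.548% of all tested genes, and none was called lower, beside 1.79%. *Pou3f4* (0.61, SE 0.191, edgeR adjusted p = 0.131) and *Sox6* (0.20, SE 0.0747, edgeR adjusted p = 0.207) did not pass the test with all libraries. Each was called in 1 of 10 fits that left out 1 library. These were *Pou3f4* without WT replicate 1 (0.81, edgeR adjusted p = 0.0457) and *Sox6* without KI replicate 5 (0.26, edgeR adjusted p = 0.0399). *Sox9* was called in all 10 fits that left out 1 library, with edgeR adjusted p of 0.000966 to 0.0255. *Sox5* was called in 5 of these 10 and not without WT replicate 1 or 5 or KI replicate 2, 3 or 4, where its log2 fold change was 0.34 to 0.41. With *Col2a1* alone as the covariate, *Sox5* was not called (0.22, edgeR adjusted p = 0.293).

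The marker level was not the same in both genotypes. Its mean was 8.47 in WT (8.24 to 8.93) and 7.90 in KI, where replicate 1 was at 6.82 and the other libraries at 8.001 to 8.34. Without KI replicate 1 the KI mean was 8.17, and the difference between genotypes went from -0.57 to -0.30. Other marker lists also differed. The mean log2 CPM of the muscle markers differed by -0.69 and that of the epithelial markers by -0.47. Of these markers, 2 of 5 and 3 of 7 were called lower without the covariate, beside 1.81% of all tested genes. The summed level of the muscle markers was 883 to 1357 CPM in WT and 693 to 1061 CPM in KI, and that of the epithelial markers 841 to 1482 and 671 to 879 CPM, with no marker of either list at 0 in any library. The osteoblast markers differed by -0.57, with none of 4 called, beside 2.64% of all tested genes. The mesenchymal markers differed by -0.19, with 1 of 8 called lower, beside the 1.81%. The part of these other marker lists in the result was not tested. The markers of the chondrocyte level include targets of SOX9, and KI replicate 1 was the lowest for each of them, so this fit compares the factors relative to a quantity that itself was lower in KI. In the same fit, of the 12 cartilage genes that are not part of the marker level, *Wwp2* (0.42) and *Susd5* (0.32) were called higher and *Comp* lower (-0.87), beside the 0.548% and 1.79% of all tested genes. The other 10 of the 22 make up the covariate, which sets their own values in this fit in part, and are not read here. *Wwp2*, a ubiquitin ligase gene that hosts a microRNA of cartilage and is a SOX9 target, was the only one of the 22 above 0 without the covariate (0.088). Whether the genotype or the cartilage content of a dissection sets the ratio was not tested. The plot of fold changes in 3 fits shows how each factor moved between them.

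**Figure D4:**
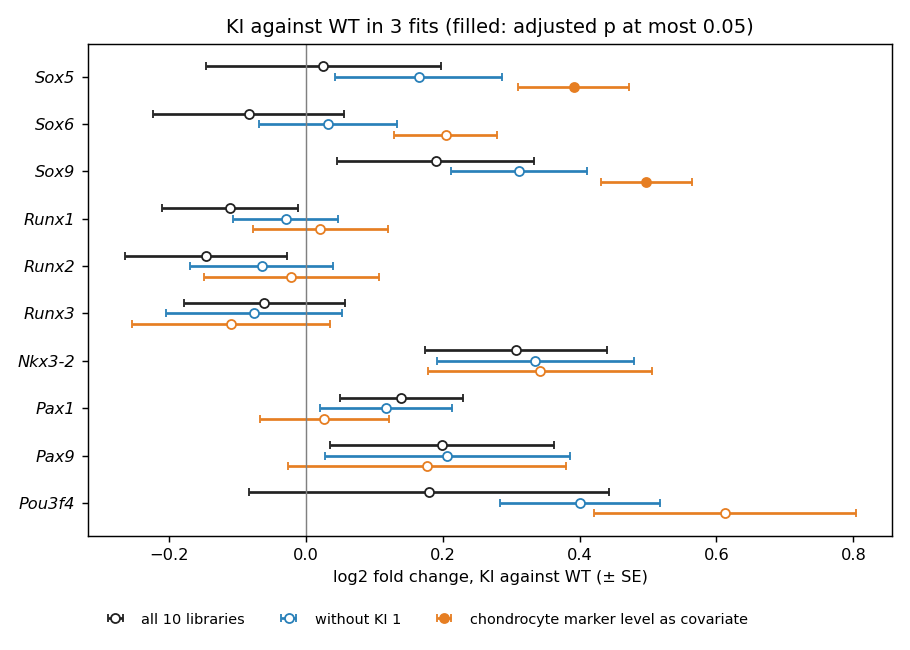
Log2 fold change (KI against WT) of each factor with its SE, from all 10 libraries (black), without KI replicate 1 (blue) and with the chondrocyte marker level as a covariate (orange), filled where the edgeR adjusted p was at most 0.05. Only *Sox9* and *Sox5* have filled points, both with the covariate (0.50 and 0.39).

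The RUNX factors differed little between the genotypes. *Runx1* (chr16:92398354-92623037, minus strand) was at 23.1, 23.4, 23.3, 24.9 and 26.8 CPM in WT replicates 1 to 5 and at 17.2, 26.9, 23.4, 23.6 and 21.3 CPM in the KI replicates. KI replicates 1 and 5 were below every WT library and KI replicate 2 above them, and the fold change was 0.926 (95% interval 0.798 to 1.07, edgeR adjusted p = 0.643). *Runx2* (chr17:44806874-45125684, minus strand) was at 35.1, 39.5, 31.8, 29.1 and 40.3 CPM in WT and at 24.3, 39.3, 32.9, 32.4 and 29.9 CPM in KI. Again KI replicate 1 was the lowest, and the fold change was 0.904 (95% interval 0.757 to 1.08, edgeR adjusted p = 0.604). *Runx3* (chr4:134847952-134905301, plus strand) was at 16.9, 12.4, 13.6, 13.5 and 10.97 CPM in WT and at 13.5, 14.2, 10.9, 11.8 and 14.2 CPM in KI, a fold change of 0.959 (95% interval 0.804 to 1.14, edgeR adjusted p = 0.855). Unlike the other RUNX genes, *Runx3* was not low in KI replicate 1, where it stood at 106% of the mean of the other KI libraries against 72.3% for *Runx1* and 72.4% for *Runx2*.

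*Runx2* made up the largest part of RUNX expression per length, 46.3% ± 4.59 in WT and 45.0% ± 3.24 in KI (SD, n = 5 each). *Runx3* held 31.3% ± 4.86 and 32.7% ± 4.82, and *Runx1* 22.4% ± 2.01 and 22.3% ± 1.64, with adjusted p of 0.942 to 0.944 in the exact permutation tests. The pattern most like *Runx2* was that of *Sp7* (r = 0.93), the osteoblast factor downstream of RUNX2, followed by *Mocs1* (r = 0.92) and *Med24* (r = 0.91). With the mean of the 4 tested osteoblast markers, *Sp7* among them, *Runx2* correlated at r = 0.90, and at 0.82 without KI replicate 1. One by one the values were 0.91 for *Ibsp*, 0.82 for *Alpl* and 0.19 for *Dmp1*, and the RUNX2 target *Spp1* was at 0.0061. Its correlation with the chondrocyte marker level was 0.52, and -0.14 without KI replicate 1. Among these 10 libraries *Runx2* thus varied with *Sp7*, *Ibsp* and *Alpl* but not with *Dmp1* or *Spp1*, as a description. *Runx1* was most like *Zc3h12b* (r = 0.95), *Rfxank* (r = 0.94) and 2610035F20Rik (r = 0.92), and *Runx3* was most like *Klhl24* (r = 0.93), *Dapp1* (r = 0.91) and *Ahrr* (r = 0.90). The exons of *Runx2* share 9.97% of their bases with antisense exons of *Runx2os1* and *Supt3*, those of *Sox5* 8.92% with *Sox5os1*, and those of the other factors, *Sox9* apart, 4.07% or less.

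Of 12 genes listed with the RUNX factors, as partner, targets or related genes such as *Dlx5*, 10 were tested, with a median log2 fold change of -0.047. None of them was called, beside 2.64% of all tested genes. *Cbfb*, which encodes the common partner of the RUNX proteins, was at 184 ± 9.06 CPM in WT and 187 ± 9.05 CPM in KI. *Dlx5*, a homeobox gene of bone and cartilage, was at 77.6 ± 13.2 CPM in WT and 101.7 ± 10.3 CPM in KI (log2 fold change 0.39, SE 0.109, edgeR adjusted p = 0.0776). *Pth1r*, the receptor of parathyroid hormone related protein, was at 152 ± 8.28 and 153 ± 7.95 CPM. *Ibsp*, the bone sialoprotein gene, was at 28.0 ± 22.1 CPM in WT and 11.5 ± 5.85 CPM in KI (log2 fold change -1.28, SE 0.547, edgeR adjusted p = 0.262), and *Alpl*, alkaline phosphatase, at 23.8 ± 5.60 and 18.8 ± 3.52 CPM. Of the 5 osteoblast markers listed, 1 was at 0 in at least 1 library, and 4 were tested and summed. Their sum was at 34.1 to 96.3 CPM in WT, with WT replicates 2 and 5 near the top, and at 20.2 to 47.2 CPM in KI. The same WT replicates held the highest *Runx2* values. *Mmp13* and *Bglap* did not pass the filter on low counts.

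With all libraries and no covariate, *Nkx3-2* had the largest fold change of the 10, and it had the narrowest spread in KI. At chr5:41917720-41921904 (minus strand), it was at 14.1, 17.8, 16.1, 11.7 and 21.5 CPM in WT replicates 1 to 5. In the KI replicates it was at 18.5, 22.4, 19.9, 18.5 and 21.2 CPM, and only WT replicate 5 reached the KI range. The fold change was 1.24 (95% interval 1.01 to 1.51, unadjusted p = 0.0386, edgeR adjusted p = 0.276), and a two-sided exact permutation test of log2 CPM gave p = 0.0714. KI replicate 1 stood at 90.3% of the mean of the other KI libraries, and without it the log2 fold change was 0.34 (edgeR adjusted p = 0.273). Its coefficient of variation was 23.0% in WT and 8.41% in KI. *Gfm1* (r = 0.95), *Dnal4* (r = 0.93) and *Rcor2* (r = 0.93) had the most similar patterns.

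*Pax1* and *Pax9* were a little higher in KI on average, within the spread of the embryos. *Pax1* (chr2:147203845-147235215, plus strand) was at 38.0, 35.0, 30.8, 37.9 and 40.3 CPM in WT and at 42.6, 40.7, 38.8, 32.7 and 45.7 CPM in KI. KI replicates 1, 2 and 5 were above every WT library, and the fold change was 1.10 (95% interval 0.963 to 1.26, edgeR adjusted p = 0.497). *Pax9* (chr12:56738552-56759607, plus strand), the least abundant of the 10, was at 11.3, 6.09, 10.1, 7.76 and 8.53 CPM in WT and at 9.83, 10.97, 9.12, 7.93 and 12.3 CPM in KI. Its fold change was 1.15 (95% interval 0.899 to 1.47, edgeR adjusted p = 0.609), on counts as low as 110 in a library. *Pax1* held 82.4% ± 3.91 of the *Pax1* and *Pax9* sum per length in WT and 81.9% ± 1.12 in KI (SD, n = 5 each).

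*Pax1* ran against the SOX factors, with r = -0.66 to *Sox5*, -0.65 to *Sox6* and -0.62 to *Sox9* over the 10 libraries. Without KI replicate 1 these were -0.80, -0.78 and -0.75, and the correlation with the chondrocyte marker level was -0.87. In KI replicate 1 *Pax1* stood at 108% of the mean of the other KI libraries. The closest patterns to *Pax1* were those of *Stip1* (r = 0.96), *Hrc* (r = 0.94) and *Asb2* (r = 0.93), and those to *Pax9* were of *Adgrl3* (r = 0.96), *Card6* (r = 0.91) and *Mtmr3* (r = 0.91).

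*Pou3f4* had the widest spread in KI, with a coefficient of variation of 39.7%, which was 14.0% without KI replicate 1. In WT it was 16.0%, below the 23.1% of *Pax9* and the 23.0% of *Nkx3-2*. This X-linked gene (chrX:109857886-109860813, plus strand) was at 55.1, 35.6, 48.9, 46.6 and 42.4 CPM in WT. It was at 17.4, 56.7, 54.4, 72.9 and 57.4 CPM in KI, where replicate 1 was far below every WT library and 3 of the other 4 above all of them. KI replicate 1 held 28.9% of the mean of the other KI libraries, the lowest share of the 10 factors. With all libraries the fold change was 1.13 (95% interval 0.764 to 1.68, edgeR adjusted p = 0.796). Without KI replicate 1 the KI mean was 60.3 ± 8.46 CPM (n = 4) against 45.7 ± 7.30 CPM in WT (n = 5), and the log2 fold change was 0.40 (SE 0.117, unadjusted p = 0.00486, edgeR adjusted p = 0.0968). That value did not reach the threshold, and without KI replicate 4 the log2 fold change was 0.025. The biological coefficient of variation in the fit was 29.2%, higher than in 99.4% of genes of like abundance, beside a median of 9.35% over all tested genes.

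The genes most like *Pou3f4* were *Otog* (r = 0.97), which encodes otogelin of the inner ear, *Gata2* (r = 0.97) and *Ccdc85c* (r = 0.97). Without KI replicate 1 these fell to 0.85, 0.78 and 0.69, and the correlation of *Pou3f4* with the chondrocyte marker level from 0.85 to 0.083. Unlike the SOX factors, *Pou3f4* was therefore tied to the chondrocyte markers by 1 library. When the log2 CPM of *Xist* was added to the fit, its log2 fold change was 0.41 (SE 0.412, edgeR adjusted p = 0.806).

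Per length of exon model, *Sox9* stood at 51.4 ± 7.95 CPM per kb in WT, above *Pou3f4* at 15.6 ± 2.49 and *Pax1* at 8.10 ± 0.810 (SD, n = 5). The ranges of these 3 did not overlap in WT. *Nkx3-2* (5.63 ± 1.30), *Runx2* (3.98 ± 0.548), *Sox6* (3.77 ± 0.446), *Runx3* (2.69 ± 0.439), *Sox5* (2.50 ± 0.414), *Runx1* (1.92 ± 0.125) and *Pax9* (1.73 ± 0.399) followed, each overlapping its neighbour in this order, as *Nkx3-2* overlapped *Pax1*. The KI order differed only in that *Pax9* (1.99 ± 0.336) was above *Runx1* (1.77 ± 0.282), a pair that overlapped in both genotypes. In KI the levels of *Pou3f4* and *Pax1* overlapped, through the 5.95 CPM per kb of KI replicate 1, while *Nkx3-2* and *Runx2* did not.

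**Figure D5:**
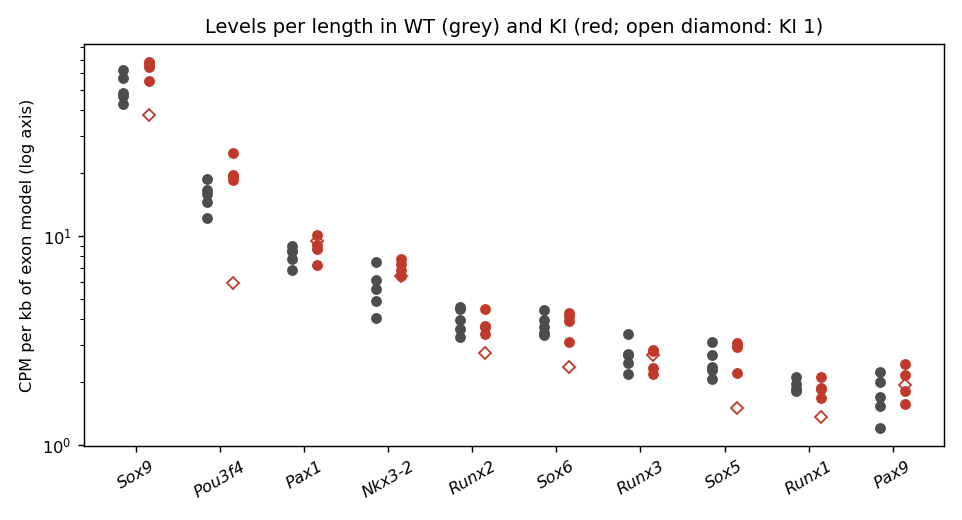
CPM per kb of exon model on a log axis for each factor in WT (grey) and KI (red, with KI replicate 1 as an open diamond), ordered by the WT mean, 1 point a library. *Sox9* is highest at 51.4 CPM per kb in WT and *Pax9* lowest at 1.73.

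Around the factors, neither the signals upstream of them nor other regulators of chondrogenesis were called, beside 2.64% of all tested genes. Of 13 inputs to chondrogenesis, 12 were tested with a median log2 fold change of 0.028, *Shh* being the gene left out by the filter. The most abundant, the receptor *Bmpr1a*, was at 237 ± 10.2 CPM in WT and 234 ± 13.7 CPM in KI, and *Gli2* and *Gli3*, which carry the hedgehog signal, were at log2 fold changes of 0.029 and 0.20 (edgeR adjusted p = 0.905 and 0.133). Of 17 other regulators of chondrogenesis none was called, beside the same 2.64%, with a median of 0.074. *Barx1*, a homeobox gene of pharyngeal arch mesenchyme, had the largest difference there, with 57.2 ± 9.29 CPM in WT and 81.4 ± 19.5 CPM in KI (log2 fold change 0.51, SE 0.152, edgeR adjusted p = 0.103), and is named after its value was seen. *Prrx1*, *Twist1* and *Mef2c*, the most abundant of this list, had log2 fold changes of 0.074, 0.15 and -0.18. With the chondrocyte marker level as a covariate, *Foxc2* (0.57), *Foxc1* (0.47) and the bone morphogenetic protein antagonist *Nog* (0.40) were called higher, 3 of the 29 genes tested from these lists beside 0.548% of all tested genes, in a fit whose covariate was itself lower in KI.

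All 10 factors varied more between embryos than most genes of like abundance did. Their biological coefficients of variation ran from 10.1% for *Pax1* to 29.2% for *Pou3f4*, each above the median of 9.35% over all tested genes. For *Sox5*, *Sox6* and *Sox9* the values were 19.0%, 15.5% and 16.0%, higher than in 98.3%, 98.0% and 98.8% of genes within 0.5 of their log2 CPM. The spread in KI rested partly on KI replicate 1, since the coefficient of variation of *Sox9* in KI was 21.4% with it and 8.89% without.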

How the data were processed

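Bulk RNA-seq of pinna prominences was analysed in 10 libraries, each from an independent embryo by the study's methods (5 per genotype). The authors used fastp for trimming, STAR for alignment to GRCm39 and featureCounts for counting per gene, and they deposited raw counts without normalization. Strand setting, annotation release and treatment of multiply matching reads are not given in the sources used here, and the labels and the paper name different kits, neither of which marks strand. GENCODE (GRCm39) gave symbols, positions and exon lengths, with symbols for 49355 identifiers, the remaining ones holding 0.111% of counts. Precision of low genes is limited by depth.

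Counts were filtered by filterByExpr, scaled by TMM and fitted by genotype alone in edgeR version 4.0.16 (R version 4.3.3) with glmQLFit, not robust, and glmQLFTest. Log2 CPM used a prior count of 2, SEs are the log2 fold change over the square root of F, and intervals are at the 95% level. The study names limma and edgeR without the test. Exact permutation tests of 5 against 5 can give no p below 0.00794. Libraries of a genotype differed beyond counting noise (chi-square per degree of freedom 2.56 to 18.2). The fit by genotype was tested on simulated data.

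The factors and the gene lists were chosen with earlier results of these data known. A further list of related genes is not reported here. Named beside the factors were called members of each list, up to 5 of the most abundant others, the 3 genes (average log2 CPM at least 1) most correlated with each factor, *Hmx1*, *Xist* and embryonic globins. Alternatives were other normalizations and filters, DESeq2 version 1.42.0, limma-voom (limma version 3.58.1), other thresholds, the replicate block, *Xist* or chondrocyte markers as covariates, and each library left out. The *Col2a1* covariate, the marker level without *Snorc* or with the block, and its leave-one-out fits were added after seeing the data. Figures were drawn with matplotlib version 3.10.9.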

Additional observations from a re-analysis of the deposited data

Results flagged for a closer look

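Of 46 groups of 5 libraries examined (the CPM of each factor, the family shares and the summed cell type markers in each genotype), 1 held a library whose distance from the nearest other exceeded Dixon's 95% critical value of 0.71. Chance gives this in about 1 of 20 groups. It was KI replicate 1, whose summed epithelium markers, 879 CPM, lay above those of the other KI libraries (671 to 711 CPM) and within the WT range of 841 to 1482 CPM. All 7 epithelium markers were tested, none was at 0 in any library, and 3 were called lower in KI, beside 1.81% of all tested genes. The same library held the lowest chondrocyte marker sum and the lowest value of 6 of the 10 factors, none of which exceeded the critical value. The part of epithelium in those values was not tested.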

How the results depend on the processing

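No factor was called under any alternative without a cartilage covariate, with edgeR or other adjusted p of 0.0816 (*Nkx3-2*) or more. The chondrocyte marker level as a covariate brought 2 calls, *Sox9* (0.50) and *Sox5* (0.39), and turned *Sox6* to 0.20 and *Runx1* to 0.021. Other turned signs were small: *Sox5* to -0.0042 with limma-voom, -0.0079 as log2 CPM and -0.11 with *Xist*, *Runx3* to 0.024 with *Xist*, and the *Runx1* share to 0.000102 percentage points in raw counts. The cause was not tested.

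Calls over all genes, 434 in the main test, numbered 830 by DESeq2's Wald test, 892 by limma-voom with quality weights, 812 at an adjusted p of at most 0.1 and 3 with *Xist*, and 154 to 655 with 1 library left out (lowest without KI replicate 3, highest without WT replicate 4).

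The replicate block uses numbers shared by the labels. Same-numbered libraries correlated at -0.056, 0.14, 0.18, 0.34 and 0.20. Their mean was 0.16, against -0.040 for other pairs, the highest of which was at 0.27. Replicate 1 did not correlate with its own number, while replicate 4 lay above the highest other pair. These values do not settle whether the numbers mark pairs, and the main fit did not use them. With the block 687 of 16426 tested genes were called, among them 5 of 22 cartilage genes, 1 of 10 tested RUNX list genes and 1 of 17 other regulators. *Sox9* was at 0.17 in that fit (adjusted p = 0.404). At the chondrocyte marker level with the block *Sox5* was at 0.27 and not called (adjusted p = 0.183), *Pou3f4* was called at 0.98 (adjusted p = 0.0237), *Runx1* was at -0.0066, *Runx2* at 0.027 and *Runx3* at 0.13. With *Col2a1* as covariate *Sox9* alone of the 10 factors was called (0.38, edgeR adjusted p = 0.00860), where 123 of 16426 genes were called higher. In that fit *Sox5* was at 0.22 and *Runx1* at -0.044. Without *Snorc* in the marker level *Runx1* was at -0.0057.

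With each library left out, log2 fold changes ran from -0.053 to 0.17 (*Sox5*), -0.16 to 0.033 (*Sox6*), 0.13 to 0.31 (*Sox9*), -0.18 to -0.029 (*Runx1*), -0.23 to -0.065 (*Runx2*), -0.13 to 0.035 (*Runx3*), 0.21 to 0.43 (*Nkx3-2*), 0.083 to 0.20 (*Pax1*), 0.098 to 0.31 (*Pax9*) and 0.025 to 0.40 (*Pou3f4*, which limma-voom put at 0.060). Calls ran from 1 to 2 of 22 cartilage genes (*Snorc* being the call lost), 0 to 1 of 12 RUNX list genes and 0 to 2 of 17 other regulators. Both of the latter were called without KI replicate 1, where 2.87% of all tested genes were called. Shares differed by -0.78 to 0.44 (*Runx1*), -2.40 to 0.099 (*Runx2*), -0.37 to 2.71 (*Runx3*) and -1.78 to 0.52 (*Pax1*) percentage points. At the chondrocyte marker level the ranges were 0.34 to 0.45 (*Sox5*), 0.15 to 0.26 (*Sox6*), -0.059 to 0.096 (*Runx1*), -0.12 to 0.076 (*Runx2*), -0.20 to 0.020 (*Runx3*), -0.073 to 0.12 (*Pax1*) and 0.42 to 0.81 (*Pou3f4*), with 1 to 3 factors called and 25 to 156 genes called higher.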
